A study of Mus musculus with 6 samples.

Results

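Serpins are a superfamily of proteins sharing a fold with an exposed reactive loop, most of which inhibit serine proteases. The genes described here were all rows of the expression table whose symbol begins with Serpin and a clade letter from a to i, except for 3 genes not analysed here, among them the sole entry of clade h. That left 66 rows of the 34745 in the table, with Serpinb10 on 2 of them. Of these, 27 had 0 counts in all 6 libraries and 4 had between 1 and 9 counts. The other 35 had 10 or more counts and are described by clade, and 32 of them passed the filter on low counts and were tested. The members next to that minimum were Serpinb10 with 6 counts below it and Serpina5 with 24 counts above it.

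Gene expression was measured by mRNA sequencing of LSECs, the sinusoidal endothelial cells of the mouse liver, whose porous walls separate blood from hepatocytes. ECKO mice carried an endothelial knockout of Tgfbr2, the type II receptor for TGF-beta, and their reference, called f/f, was Tgfbr2f/f littermates. Both genotypes had been given carbon tetrachloride (CCl4), a hepatotoxin that produces liver fibrosis, by intraperitoneal injection 2 times a week over 6 weeks, and 3 libraries were made from each. The sources used here give no Cre driver, age or sex, and no method of isolating the cells. Nor do they say whether the libraries of a genotype are different mice, so p-values measure the spread between libraries, which may be technical.

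A protease that cuts the reactive loop of an inhibitory serpin becomes trapped in a covalent complex, so each inhibitor molecule is used once. Many serpins of clades A, C, D and F are made by hepatocytes and secreted into plasma, where they limit clotting, fibrinolysis and neutrophil proteases, whereas those of clade B mostly stay inside the cell. Some members have lost the inhibitory function and carry hormones, and several mouse genes exist as clusters of near-identical copies where humans have a single gene.

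Those copies bear on every value below, because the sources used here do not say how reads matching several of them were counted. The stretches shown first lie just upstream of the RefSeq starts of 5 Serpina1 genes, the mouse copies of alpha-1 antitrypsin, on the minus strand of chromosome 12. All sequences are from RefSeq on GRCm38.p6, written 5′ to 3′, and the capitals mark the longest run shared by the 5 genes, which spans 55 of 95 bases. They span chr12:103863625-103863719 for Serpina1a, chr12:103738200-103738294 for Serpina1b, chr12:103904962-103905056 for Serpina1c, chr12:103773634-103773728 for Serpina1d and chr12:103956960-103957054 for Serpina1e.
Serpina1a: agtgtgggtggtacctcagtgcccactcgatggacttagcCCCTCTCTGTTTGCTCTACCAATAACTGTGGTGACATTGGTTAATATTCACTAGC
Serpina1b: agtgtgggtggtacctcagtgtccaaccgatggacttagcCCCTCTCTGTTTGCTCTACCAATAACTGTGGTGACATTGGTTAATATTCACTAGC
Serpina1c: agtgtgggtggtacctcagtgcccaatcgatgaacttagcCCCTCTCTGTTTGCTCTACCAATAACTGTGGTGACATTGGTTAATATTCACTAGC
Serpina1d: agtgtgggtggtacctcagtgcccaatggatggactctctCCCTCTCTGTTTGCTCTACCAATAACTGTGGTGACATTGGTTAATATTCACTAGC
Serpina1e: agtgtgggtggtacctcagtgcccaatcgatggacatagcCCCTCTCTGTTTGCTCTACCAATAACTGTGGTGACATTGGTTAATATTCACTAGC
Any 2 of these stretches differ at between 2 and 7 of the 95 bases. Serpina1e has the shared run farthest from its RefSeq start, with the stretch ending 63 bases upstream of it, against 1 to 12 bases in the other 4 genes. In the expression table Serpina1b and Serpina1e reach farther upstream, to 103830373 and 103958975. Their stretches lie inside those loci.

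The shared run holds GTTAAT, letters found in binding sites of the hepatocyte factor HNF1. Searched on both strands of the 250 bases before each start, it was present in 8 of the 26 described members with a promoter in the RefSeq table, and in 6.43% of all 32851 promoters. CAGAC, the core of SMAD binding sites, was present in 16 of the 26 members and in 42.2% of all promoters. Both counts of members include all the Serpina1 genes shown, and their GTTAAT matches lie in the 1 run that they share. A member with several annotated starts was counted if any of its promoters matched. Member shares and promoter shares are therefore not like for like.

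A second cluster on chromosome 12 holds the Serpina3 genes, copies of the gene for alpha-1 antichymotrypsin. Upstream stretches of 4 picked genes are shown, of which 1, Serpina3b, was called lower in ECKO libraries and the other 3 were not. Serpina3g and Serpina3c also have a RefSeq promoter and were not included. They lie on the plus strand at chr12:104127912-104127973 for Serpina3b, chr12:104214454-104214515 for Serpina3f, chr12:104263060-104263121 for Serpina3i and chr12:104406625-104406686 for Serpina3n. Capitals mark the longest run that all 4 share, which is 12 bases.
Serpina3b: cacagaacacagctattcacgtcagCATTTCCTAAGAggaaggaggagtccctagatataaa
Serpina3f: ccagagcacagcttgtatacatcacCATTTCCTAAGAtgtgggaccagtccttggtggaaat
Serpina3i: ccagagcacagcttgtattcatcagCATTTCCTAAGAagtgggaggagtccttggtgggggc
Serpina3n: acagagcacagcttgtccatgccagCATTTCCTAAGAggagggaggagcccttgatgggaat

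The third sequence is that of Serpinb2, the serpin with the lowest level in ECKO libraries relative to f/f libraries. The 100 bases before its start lie on the plus strand at chr1:107511323-107511422. Capitals mark a match to the AP-1 motif, followed downstream by a TATA box.
Serpinb2: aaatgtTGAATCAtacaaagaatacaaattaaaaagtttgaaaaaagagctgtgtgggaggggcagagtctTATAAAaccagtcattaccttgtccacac
The AP-1 motif, searched as TGANTCA, was present in 6 of 26 members and 6.75% of all promoters. Those members include Serpina1a to Serpina1d, which are near copies of each other. The TATA box, searched as TATAAA, was present in 5 of 26 members and 12.4% of all promoters. A match says only that the letters are there.

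Library totals ranged from 17171850 to 18671217 counts for ECKO and from 17632271 to 25062755 for f/f. Mitochondrial transcripts held 19.7 to 32.4% of ECKO counts and 11.5 to 23.5% of f/f counts. The summed level of 12 LSEC markers was 25110 to 29970 CPM (counts scaled to library size by TMM) in ECKO libraries and 23020 to 26870 in f/f libraries, so defining markers of the labelled cell type were abundant in all 6. Of the 12, edgeR called 2 higher in ECKO libraries, Clec1b and Pecam1, and 0 lower. In all 5 were higher at an unadjusted p under 0.05 by that test, and DESeq2 called 4 higher and limma-voom 0. For this and later lists, the background over all genes was 3214 of 13692 at an unadjusted p under 0.05 by edgeR. DESeq2 called 1484 of 15405 genes and limma-voom 307 of 13692. Tgfbr2 itself stood at 498 ± 12.1 CPM in ECKO and 427 ± 35.0 CPM in f/f libraries (SD, n = 3 each; log2 fold change 0.22, SE 0.10, edgeR adjusted p = 0.228). The labels do not say which part of the gene is deleted, so gene counts cannot check the genotype. Libraries also differed in markers of other liver cells. The summed level of 15 stellate cell and fibroblast markers was 680 to 1060 CPM in ECKO and 1702 to 3039 CPM in f/f libraries, with 8 of 15 lower and 0 higher by the same test, and none was at 0. B and plasma cell markers summed to 2.67 to 4.79 CPM in ECKO and 8.82 to 24.7 CPM in f/f libraries, with 3 of 6 tested lower (DESeq2 5, limma-voom 0). Cholangiocyte markers summed to 140 to 188 CPM in ECKO and 213 to 600 CPM in f/f libraries, with 0 of 5 called by edgeR, 5 at an unadjusted p under 0.05, 4 called lower by DESeq2 and 0 by limma-voom. Spp1 alone made up most of that sum, at 122, 161 and 165 CPM in ECKO and 186, 529 and 302 CPM in f/f libraries. None of the markers of these cell types was at 0 in all libraries, and the part of these cells in the serpin values was not tested. In bulk samples such as these, fewer cells of a type and less RNA per cell cannot be told apart. The f/f library 1 had the highest hepatocyte marker sum and the lowest stellate marker sum of the f/f libraries.

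With all clades together, serpin transcripts made up 0.162, 0.233 and 0.172% of the counts of ECKO libraries 1, 2 and 3, and 0.205, 0.131 and 0.154% of those of f/f libraries 1, 2 and 3. These shares overlap between the groups. Clade A held 80.5 to 82.4% of these serpin counts in ECKO and 61.2 to 83.2% in f/f libraries. Clade G, which is Serping1 alone, took a smaller part in each ECKO library than in any f/f library, at 2.27 to 2.77% in ECKO and 6.04 to 13.6% in f/f libraries.

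Serping1, Serpinb2, Serpina6 and Serpina3b fell in ECKO libraries. The pseudogene Serpina4-ps1 rose. Counted over the 32 members tested, 4 were lower (12.5%) and 1 was higher (3.12%) by edgeR's quasi-likelihood test at an adjusted p of 0.05, against 2.79% lower and 1.24% higher among all 13692 genes tested. Among the members called, Serpinb2, Serpina6 and Serpina4-ps1 would not have passed the filter on the libraries of their lower group alone. Without regard to the test, 6 of the 32 members had all 3 ECKO libraries below all 3 f/f libraries, against 15.2% of all genes tested. In 5 of the 32, all ECKO libraries lay above all f/f libraries, against 15.7%. Both shares of members were near those of all genes, so separation was about as common among serpins as elsewhere. For any single gene taken alone such a separation gives an exact two-sided permutation p of 0.1, the smallest that 3 libraries against 3 allow. The median log2 fold change of the members was 0.36, against 0.01 for all genes tested, with 21 members positive and 11 negative.

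**Figure D1:**
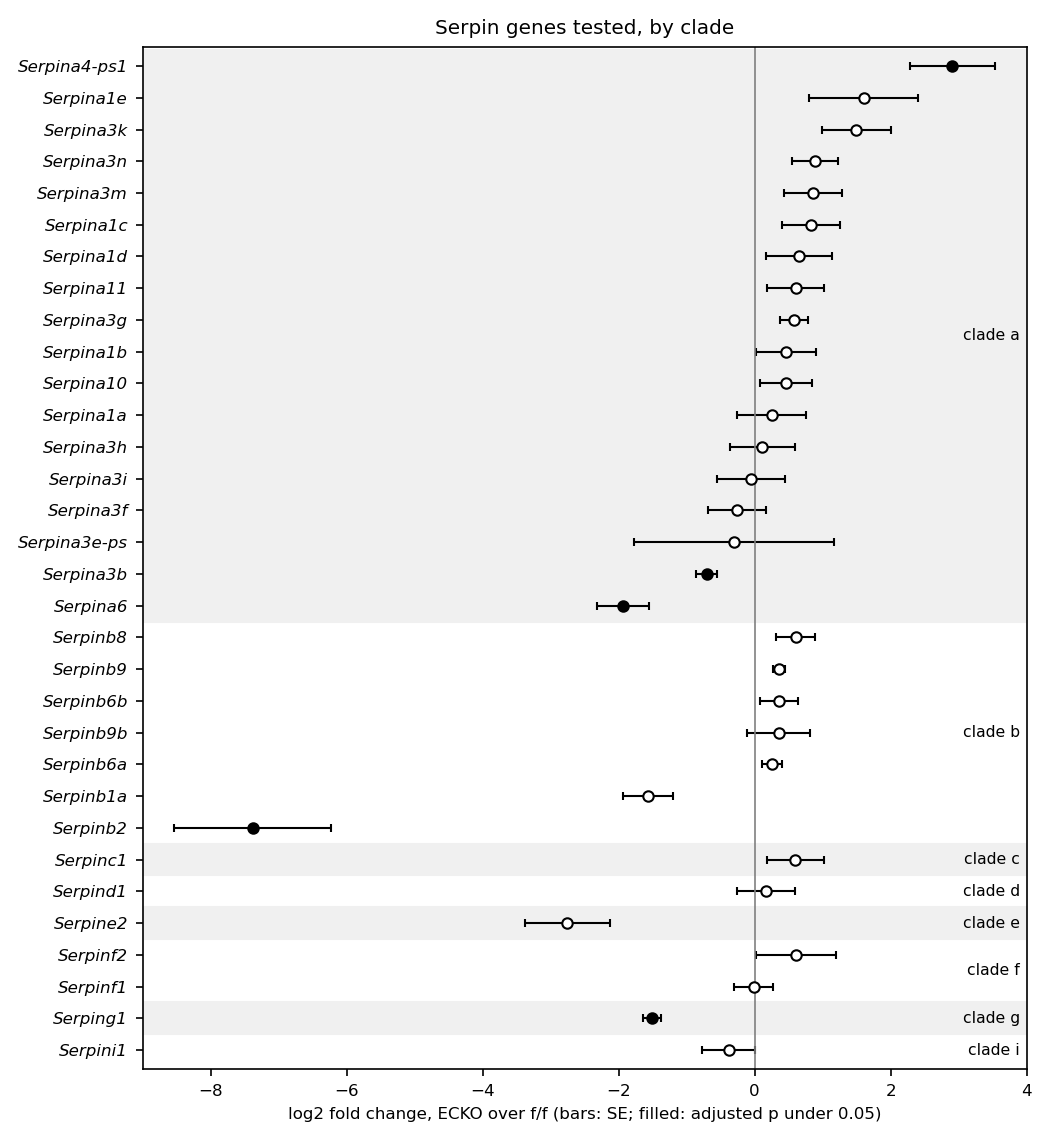
Log2 fold change of ECKO over f/f (horizontal axis) for the 32 serpin genes tested, grouped by clade, with bars for the standard error and filled points for an adjusted p under 0.05. Filled points lie at -7.38 for Serpinb2 (1 count in all ECKO libraries, so its size depends on the prior count), -1.94 for Serpina6, -1.51 for Serping1, -0.71 for Serpina3b and 2.91 for Serpina4-ps1.

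Serping1 encodes C1 inhibitor, the plasma serpin that blocks the complement proteases C1r and C1s and, in the contact pathway, plasma kallikrein and factor XIIa. It lies on chromosome 2 (84765387 to 84775444, minus strand, mm10/GRCm38). Its level was 44.2, 57.7 and 51.1 CPM in ECKO libraries and 129, 153 and 153 CPM in f/f libraries. All ECKO libraries were low and the groups stood well apart. Serping1 averaged 51.0 ± 6.77 CPM in ECKO and 145 ± 13.6 CPM in f/f libraries (SD, n = 3 each). That is a log2 fold change of -1.51, with an SE of 0.13 and an edgeR adjusted p of 0.00853. Per gene length it averaged 16.8 FPKM in ECKO and 56.2 FPKM in f/f libraries, and over all 6 libraries it was the fifth most abundant serpin. Its call held when any single library was left out (edgeR adjusted p 0.00248 to 0.0425).

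Stellate cell markers, given above, were lower in the same libraries, and 2 of 6 tested mesothelial markers were lower too (DESeq2 4, limma-voom 0), with summed levels of 23.4 to 71.5 CPM in ECKO and 45.0 to 92.7 CPM in f/f libraries. Their part in the fall of Serping1 was not tested. Among 5 tested complement proteases of the C1 and lectin pathways, edgeR called 0 and limma-voom 0, with 1 at an unadjusted p under 0.05. That gene was C1s1, which encodes the C1s protease that C1 inhibitor blocks and which DESeq2 called lower. It averaged 18.3 ± 8.06 CPM in ECKO and 38.8 ± 11.7 CPM in f/f libraries (n = 3 each; log2 fold change -1.08, SE 0.37, edgeR adjusted p = 0.144).

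Serpinb2 and Serpine2 encode inhibitors of plasminogen activators or thrombin, and both were lower in every ECKO library than in any f/f library. Serpinb2 passed the test, whereas Serpine2 did not. Serpinb2, on chromosome 1 (107511423 to 107535478), encodes plasminogen activator inhibitor type 2, an inhibitor of urokinase that is best known from macrophages. It had 0, 0 and 1 counts in ECKO libraries, against 91, 167 and 31 counts in f/f libraries. It was at or near 0 in every ECKO library and present in every f/f library, at levels that differed several-fold among the f/f libraries (3.80, 8.20 and 1.28 CPM). The ratio of ECKO to f/f, from the summed counts, was 0.00477, with an exact 95% counting interval of 0.00012 to 0.0268. The edgeR adjusted p was 0.0241. It was not called when any ECKO library was left out and was called when any f/f library was, with adjusted p between 0.0239 and 0.105. Serpinb2 passed the filter through the f/f libraries alone, and it overlaps Serpinb10, which had 6 counts in all.

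Markers of myeloid cells were measured in the same libraries. For Kupffer cells edgeR called 0 of 9 tested markers (3 at an unadjusted p under 0.05, DESeq2 1, limma-voom 0), and all 10 summed to 65.0 to 89.3 CPM in ECKO and 49.1 to 96.8 CPM in f/f libraries. For monocytes edgeR called 0 of 4 (2 at an unadjusted p under 0.05, DESeq2 2 lower, limma-voom 0), and all 7 summed to 43.4 to 56.2 CPM in ECKO and 51.3 to 126 CPM in f/f libraries. For neutrophils 1 of 3 tested markers, Mpo, was lower (DESeq2 2 lower, limma-voom 0), and the summed level of all 10 was 1.68 to 4.79 CPM in ECKO and 12.6 to 22.1 CPM in f/f libraries, with Ly6g at 0 throughout. Mpo alone made up most of that sum in f/f libraries, at 12.9, 18.2 and 8.32 CPM. The other tested markers were S100a9 (log2 fold change -1.89, edgeR adjusted p = 0.0749) and Csf3r (log2 fold change -0.46, edgeR adjusted p = 0.701). The part of these cells in the Serpinb2 difference was not tested.

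Serpine2 encodes protease nexin-1, an inhibitor of thrombin and urokinase that is bound to cell surfaces and matrix. It lies on chromosome 1 (79794197 to 79861180, minus strand). It had 1.33, 1.51 and 0.573 CPM in ECKO libraries and 2.51, 9.33 and 11.3 CPM in f/f libraries. The f/f library 1 was the low one of its group here, as for the stellate cell markers, whose part in the difference was not tested. The log2 fold change was -2.76 (SE 0.62, edgeR adjusted p = 0.0588), and without f/f library 1 it was -3.17 (adjusted p = 0.00621, within a range of 0.00621 to 0.158 over all leave-outs). Serpine3, of the same clade, had 0 counts in all libraries.

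Of 7 genes of plasminogen activation edgeR called 0, with 3 at an unadjusted p under 0.05, while DESeq2 called 1 (S100a10, higher) and limma-voom 0. Plau, which encodes urokinase, averaged 55.2 ± 3.94 CPM in ECKO and 42.4 ± 4.77 CPM in f/f libraries (n = 3 each; log2 fold change 0.38, SE 0.11, edgeR adjusted p = 0.106). The complexes that Serpine2 forms with proteases are taken up by LRP1. Lrp1 was called lower, at 48.2, 41.4 and 53.8 CPM in ECKO and 113, 131 and 127 CPM in f/f libraries (log2 fold change -1.37, SE 0.12, edgeR adjusted p = 0.00853). It was the single call among 9 tested clearance receptors and cofactors, and Lrp2, a related receptor, missed the threshold (log2 fold change -3.12, SE 0.69, adjusted p = 0.0505). Lrp2 had 0, 0.290 and 0.115 CPM in ECKO and 0.919, 1.42 and 1.45 CPM in f/f libraries. It passed the filter through the f/f libraries alone. Its ECKO values were near 0, so the size of its fold change is uncertain. On the same list DESeq2 called 6 genes lower and limma-voom called Lrp1 alone.

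**Figure D2:**
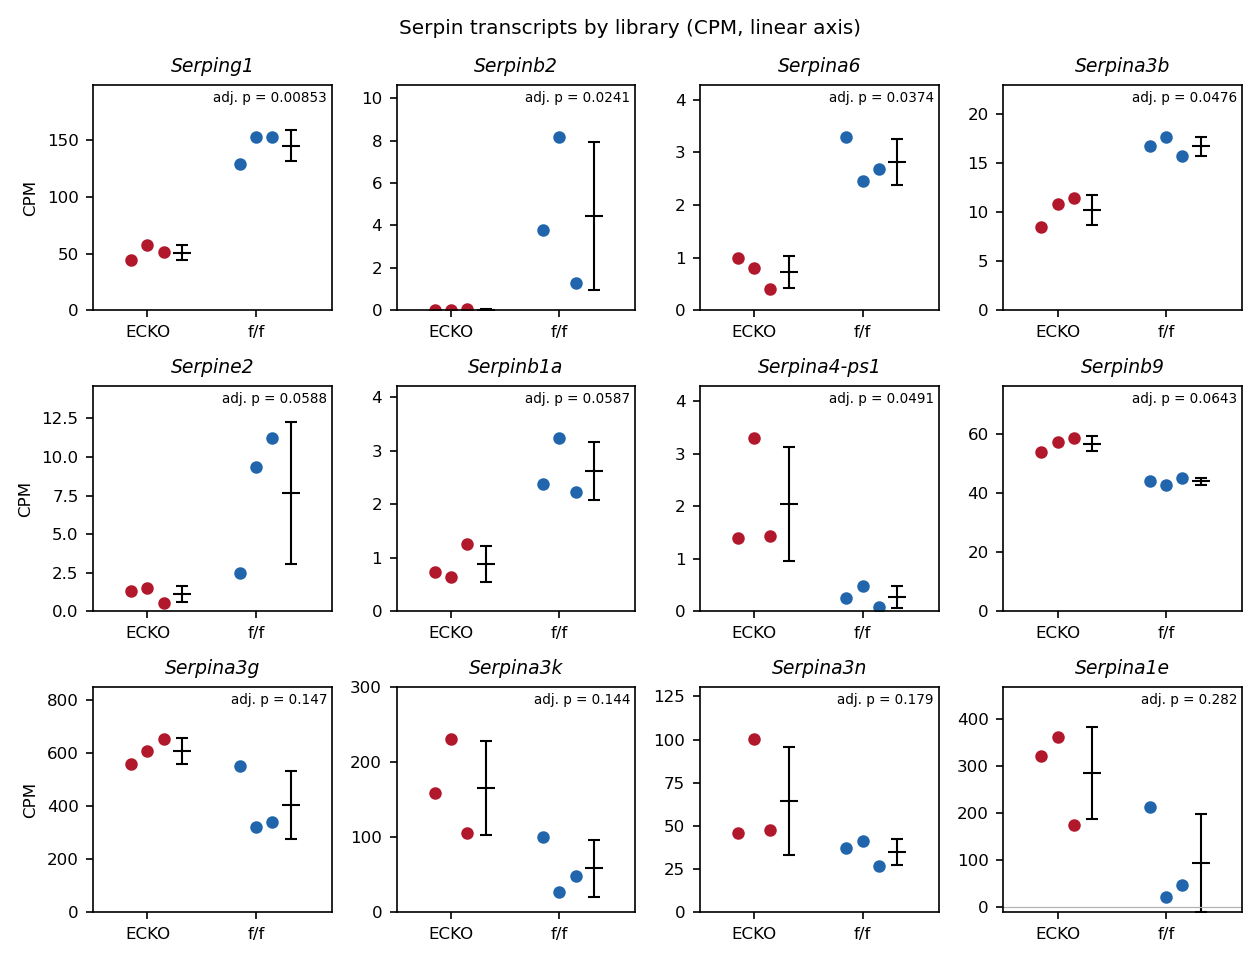
CPM of 12 serpin genes in each library (points, ECKO red and f/f blue, in order of library number), with the mean and SD beside them and the edgeR adjusted p in each panel. All ECKO points lie below all f/f points for 6 genes, from Serping1 to Serpinb1a, and above them for Serpina4-ps1, Serpinb9, Serpina3g, Serpina3k and Serpina3n. Of all genes tested, 15.2% separated below and 15.7% above in this way. Serpina1e is the gene whose groups overlap.

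Both hormone carriers of the family were lower in every ECKO library. Serpina6 encodes corticosteroid-binding globulin, the plasma carrier of glucocorticoids, and lies on chromosome 12 (103646630 to 103657212, minus strand). It had 0.998, 0.813 and 0.401 CPM in ECKO libraries, against 3.30, 2.46 and 2.69 CPM in f/f libraries. No ECKO library reached the lowest f/f value (log2 fold change -1.94, SE 0.38, edgeR adjusted p = 0.0374). Serpina6 had 15, 14 and 7 counts in ECKO libraries, too few to pass the filter without f/f libraries, where it was higher. Its call rested on most of the libraries: it stayed under the threshold only without f/f library 1, with adjusted p between 0.0461 and 0.126 over the 6 leave-outs.

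Serpina7, on the X chromosome (139079257 to 139085236, minus strand), encodes thyroxine-binding globulin. It had 1, 2 and 2 counts in ECKO libraries, against 12, 28 and 27 counts in f/f libraries. The groups did not overlap. Its counts were too low to pass the filter, and with no filter it was called lower (edgeR log2 fold change -3.22, adjusted p = 0.0255). For hepatocyte markers edgeR called 0 of 15 (1 at an unadjusted p under 0.05, DESeq2 1, limma-voom 0), their median log2 fold change was 0.43, and they summed to 1596, 2186 and 1096 CPM in ECKO and 2010, 1112 and 1269 CPM in f/f libraries. The part of hepatocyte RNA in Serpina6 and Serpina7 was not tested.

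The Serpina3 cluster did not move as one. Serpina3g encodes a serpin found inside cells, which in mice inhibits lysosomal cathepsins, and by FPKM it ranked first of the 35 described members (168 FPKM in ECKO and 129 FPKM in f/f libraries on average). It had 556, 607 and 653 CPM in ECKO and 549, 320 and 341 CPM in f/f libraries. Each ECKO library was above each f/f library, with ECKO library 1 and f/f library 1 nearly level. The log2 fold change was 0.58 (SE 0.21, edgeR adjusted p = 0.147), and without f/f library 1 it was 0.88 (adjusted p = 0.0100, within a range of 0.0100 to 0.365).

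Serpina3b was the one Serpina3 gene called lower. It had 8.45, 10.8 and 11.4 CPM in ECKO libraries, against 16.7, 17.7 and 15.7 CPM in f/f libraries. Values were close within each group and the groups did not overlap (log2 fold change -0.71, SE 0.15, edgeR adjusted p = 0.0476). It lost the call when any library was left out, with adjusted p between 0.0567 and 0.135.

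Serpina3f, another gene of the cluster, stood at 238, 243 and 296 CPM in ECKO and 536, 160 and 229 CPM in f/f libraries. Its f/f library 1 alone was above the ECKO range, and the log2 fold change was -0.25 (SE 0.43, adjusted p = 0.748), or 0.42 without that library. Serpina3k, which encodes a kallikrein-binding plasma protein, had 159, 231 and 106 CPM in ECKO and 100, 27.1 and 48.5 CPM in f/f libraries (log2 fold change 1.49, SE 0.50, edgeR adjusted p = 0.144). Without f/f library 1 Serpina3k had a log2 fold change of 2.13 and was called (edgeR adjusted p = 0.0385, within a range of 0.0385 to 0.346 over the leave-outs). Serpina3n, whose product inhibits granzyme B, had 45.7, 101 and 47.4 CPM in ECKO and 37.2, 41.4 and 26.7 CPM in f/f libraries (log2 fold change 0.88, SE 0.34, edgeR adjusted p = 0.179). Both were higher in every ECKO library than in any f/f library and neither passed the test with all 6 libraries. Serpina3i and Serpina3m overlapped between the groups, as did Serpina3c, which did not pass the filter, and the pseudogenes Serpina3e-ps and Serpina3h. Without f/f library 1 the log2 fold change of Serpina3h was 0.94 (edgeR adjusted p = 0.0146, within a range of 0.0146 to 0.951), against 0.11 with all libraries. That of Serpina3m was 1.53 (edgeR adjusted p = 0.0240, within a range of 0.0240 to 0.534), against 0.86 with all libraries.

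Because these copies can share reads, the counts of the set were also summed. The Serpina3 sum was 1043, 1233 and 1159 CPM in ECKO and 1309, 586 and 686 CPM in f/f libraries (log2 fold change 0.41, SE 0.29, edgeR adjusted p = 0.425). The f/f library 1 was the highest of all 6, and without it the log2 fold change was 0.86 (adjusted p = 0.0150). Within the sum, Serpina3f took 22.8, 19.7 and 25.5% in ECKO and 41.0, 27.2 and 33.5% in f/f libraries, Serpina3b took 0.81, 0.876 and 0.985% in ECKO and 1.28, 3.02 and 2.29% in f/f libraries, and Serpina3k took 15.2, 18.7 and 9.17% in ECKO and 7.66, 4.62 and 7.07% in f/f libraries. The shares of Serpina3g overlapped, with means of 53.0% in ECKO and 48.8% in f/f libraries, as did those of Serpina3h, Serpina3i, Serpina3m and Serpina3n. Shares within the sum add to a fixed total, so they are not independent of each other.

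The one member called higher, Serpina4-ps1, is an unprocessed pseudogene in the same stretch of chromosome 12 (104080649 to 104086724, plus strand). It had 21, 57 and 25 counts in ECKO libraries, against 6, 10 and 2 counts in f/f libraries, or 1.40, 3.31 and 1.43 CPM in ECKO and 0.251, 0.491 and 0.0828 CPM in f/f libraries. Every ECKO library was above every f/f library at a low level (log2 fold change 2.91, SE 0.63, edgeR adjusted p = 0.0491). It was not called when any library was left out, with adjusted p between 0.0595 and 0.142, and it passed the filter through the ECKO libraries alone.

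Alpha-1 antitrypsin is the main plasma inhibitor of neutrophil elastase, and hepatocytes are its chief source. For the 5 Serpina1 genes with 10 or more counts edgeR, DESeq2 and limma-voom each called 0, and 0 had an unadjusted p under 0.05. Serpina1e had the largest difference, with 321, 361 and 174 CPM in ECKO and 214, 21.9 and 46.9 CPM in f/f libraries. The groups overlapped through f/f library 1, which exceeded ECKO library 3. The log2 fold change was 1.60 (SE 0.81, edgeR adjusted p = 0.282), and without f/f library 1 it was 3.06 (adjusted p = 0.0250, within a range of 0.0250 to 0.534). The other 4 genes had log2 fold changes of 0.25 to 0.83, and the sum of the set was 552, 669 and 320 CPM in ECKO and 464, 98.6 and 182 CPM in f/f libraries (log2 fold change 1.05, SE 0.57, edgeR adjusted p = 0.313). Without f/f library 1 that sum had a log2 fold change of 1.88 (edgeR adjusted p = 0.0504, within a range of 0.0504 to 0.567 over the leave-outs).

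The make-up of the Serpina1 sum separated the groups, whereas its level did not. Serpina1e took 58.2, 54.0 and 54.5% of the set's counts in ECKO libraries, against 46.0, 22.2 and 25.8% in f/f libraries. The ECKO shares were alike and all above the f/f shares (exact two-sided permutation p = 0.1, the smallest possible). Serpina1a took 5.09, 5.59 and 5.42% in ECKO and 8.30, 9.46 and 11.9% in f/f libraries, and Serpina1b took 16.5, 17.5 and 17.6% in ECKO and 22.0, 33.2 and 31.1% in f/f libraries. The shares of Serpina1d were also lower in each ECKO library, and those of Serpina1c overlapped. Because shares of a sum add to a fixed total, a larger part for Serpina1e leaves a smaller part for the others. Serpina1b overlaps Serpina1d in the annotation, and how reads were divided among the 5 copies is not known.

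**Figure D3:**
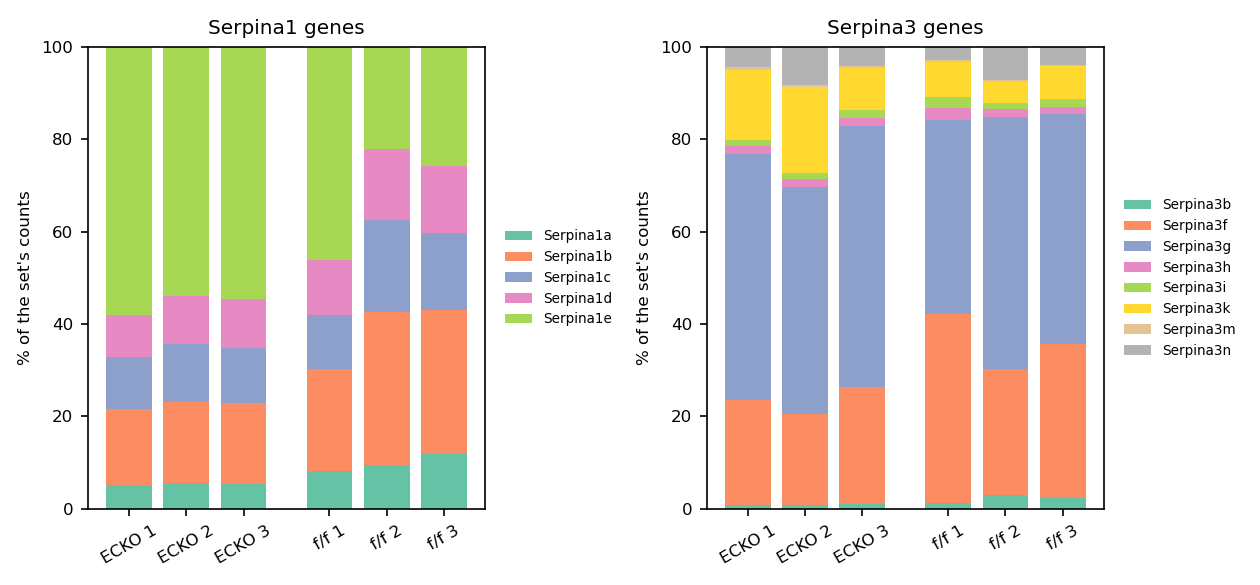
Share of each gene (vertical axis, % of the set's counts) in the summed counts of the Serpina1 genes (left) and the Serpina3 genes (right) in each library, ECKO left of f/f. Serpina1e holds 54.0 to 58.2% of the Serpina1 counts in ECKO and 22.2 to 46.0% in f/f libraries, and Serpina3f holds 19.7 to 25.5% of the Serpina3 counts in ECKO and 27.2 to 41.0% in f/f libraries.

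Clotting and fibrinolysis in plasma are held in check by further serpins from the liver. Serpinc1 encodes antithrombin, the inhibitor of thrombin and factor Xa, and had 14.2, 28.2 and 11.8 CPM in ECKO and 17.6, 7.46 and 10.8 CPM in f/f libraries (log2 fold change 0.59, SE 0.42, edgeR adjusted p = 0.430). Serpind1 encodes heparin cofactor II, a thrombin inhibitor, and had 3.59, 6.15 and 2.87 CPM in ECKO and 5.81, 2.11 and 3.31 CPM in f/f libraries (log2 fold change 0.16, SE 0.43, adjusted p = 0.842). Serpinf2 encodes alpha-2 antiplasmin, the inhibitor of plasmin, and had 8.25, 13.5 and 4.58 CPM in ECKO and 10.4, 2.46 and 4.35 CPM in f/f libraries (log2 fold change 0.61, SE 0.59, adjusted p = 0.566). The groups overlapped for all 3 genes, and Serpina10, which encodes the protein Z-dependent inhibitor of factor Xa, overlapped as well.

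Taking these 3 with Serpina10, Serpina11, Serpina3k, Serpina3m and the 5 Serpina1 genes gives 12 serpins secreted by the liver, a group assembled after the values were seen. It leaves out other plasma serpins described above that were lower in ECKO libraries, namely Serping1, Serpina6 and Serpina7, so a shared direction within it follows in part from that choice. EdgeR called 0, with adjusted p between 0.144 and 0.842 and 1 at an unadjusted p under 0.05, and DESeq2 and limma-voom also called 0. All 12 log2 fold changes were positive, from 0.16 to 1.60, but that of Serpind1 was -0.01 with libraries scaled by their total counts, and those of Serpind1 and Serpina1a turned negative when ECKO library 2 or f/f library 2 was left out. Most of the 12 genes shared an order of libraries. Among f/f libraries, library 1 was the highest and library 2 the lowest for 12 of 12 genes, and among ECKO libraries, library 2 was the highest for 11 and library 3 the lowest for 10. The 5 Serpina1 genes can share reads, so the 12 genes are not separate observations. Serpinf1 (log2 fold change -0.02) and Serpina3n, also left out of the group, were highest in f/f libraries 3 and 2. The summed hepatocyte markers had the order of most of the 12 in both groups. Among the single markers, Ttr and Cyp2e1 were lowest in f/f library 1 and the others were highest there. The part of hepatocyte RNA in these values was not tested.

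**Figure D4:**
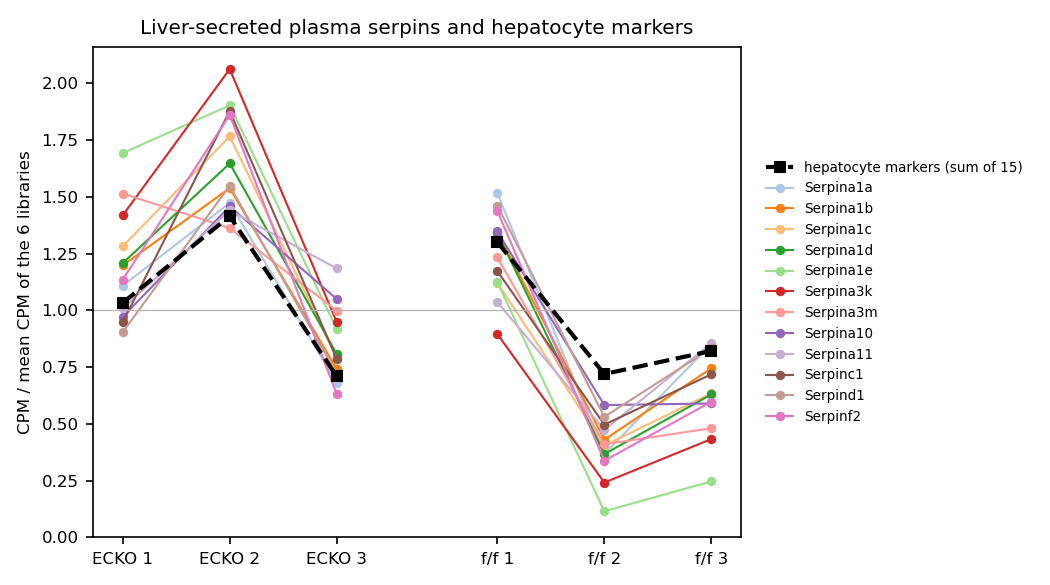
CPM of 12 liver-secreted serpins and the sum of 15 hepatocyte markers (dashed black), each divided by its mean over the 6 libraries (vertical axis), with ECKO left of f/f and lines linking the libraries of 1 gene. Every serpin is highest at f/f 1 and lowest at f/f 2 among the f/f libraries, as the hepatocyte sum is, and Serpina3k and Serpina1e lie farthest apart between the groups.

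In clade B, the serpins that act within cells, 29 rows were listed, 20 had 0 counts throughout and 7 were tested. Serpinb2 was the single call. Serpinb6a, which inhibits cathepsin G, was the most abundant of the clade, with 163, 168 and 181 CPM in ECKO and 114, 152 and 164 CPM in f/f libraries (log2 fold change 0.25, SE 0.14, edgeR adjusted p = 0.325). Its groups overlapped, and its locus on chromosome 13 overlaps Nqo2 and Ripk1. Serpinb9, which protects cells from granzyme B, had 53.8, 57.2 and 58.7 CPM in ECKO and 44.0, 42.8 and 45.0 CPM in f/f libraries. Its libraries were close within each group, each ECKO library was higher than each f/f library (log2 fold change 0.36, SE 0.09, edgeR adjusted p = 0.0643).

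Serpinb1a inhibits the neutrophil proteases elastase, cathepsin G and proteinase 3. It had 0.732, 0.639 and 1.26 CPM in ECKO libraries, against 2.38, 3.24 and 2.23 CPM in f/f libraries. Every ECKO library was below every f/f library. With a log2 fold change of -1.56 (SE 0.37, edgeR adjusted p = 0.0587) it was not called. Among its target proteases, Prtn3, which encodes proteinase 3, was called lower, at 0.399, 0.174 and 0.745 CPM in ECKO and 5.56, 5.01 and 2.32 CPM in f/f libraries (log2 fold change -3.26, SE 0.55, edgeR adjusted p = 0.0256). Elane, which encodes neutrophil elastase, averaged 0.460 ± 0.699 CPM in ECKO and 3.71 ± 1.01 CPM in f/f libraries (n = 3 each; log2 fold change -3.06, SE 0.93, edgeR adjusted p = 0.113). Prtn3 and Elane passed the filter through the f/f libraries alone, and Elane had 1.26, 0 and 0.115 CPM in ECKO libraries. Of 10 leukocyte serine proteases listed 4 were tested, and edgeR called 1, DESeq2 2 and limma-voom 0. Of the neutrophil markers 1 of 3 tested, Mpo, was lower, as given above, and the part of neutrophils in these values was not tested. Serpinb6b, Serpinb8 and Serpinb9b had log2 fold changes of 0.35 to 0.60 with overlapping groups.

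The remaining members lay at low levels and did not separate the groups. Serpinf1 encodes pigment epithelium-derived factor, a secreted serpin that does not inhibit proteases, and averaged 6.27 ± 2.49 CPM in ECKO and 6.34 ± 0.688 CPM in f/f libraries (n = 3 each; log2 fold change -0.02, SE 0.29, edgeR adjusted p = 0.977). Serpini1 encodes neuroserpin, an inhibitor of tissue plasminogen activator in neurons, and had 0.931, 0.929 and 0.745 CPM in ECKO and 0.836, 0.933 and 1.61 CPM in f/f libraries (log2 fold change -0.38, SE 0.39, edgeR adjusted p = 0.584). Serpina5, the gene for protein C inhibitor, had 15 counts over the ECKO libraries and 9 over the f/f libraries and did not pass the filter.

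Beyond the serpins, 84 genes of the proteases, receptors and other inhibitors around them were listed, and 72 could be tested. Of these edgeR called 2 lower, Lrp1 and Prtn3, and 0 higher, and at an unadjusted p under 0.05 there were 17 negative and 8 positive. DESeq2 called 15 lower and 2 higher, and limma-voom 1 lower and 0 higher. Among all genes, 3214 of 13692 had an unadjusted p under 0.05 by edgeR, and DESeq2 called 1033 of 15405 lower and 451 higher. Of 20 coagulation and protein C genes edgeR called 0 and DESeq2 1, F3, which encodes tissue factor. It averaged 0.768 ± 0.382 CPM in ECKO and 2.40 ± 0.678 CPM in f/f libraries (n = 3 each; log2 fold change -1.62, SE 0.44, edgeR adjusted p = 0.0802). Cysteine proteases that clade B serpins can meet gave 0 calls among 7, and Ctss, the gene for cathepsin S, missed the threshold (log2 fold change -1.25, SE 0.33, adjusted p = 0.0806) and was called by DESeq2. Inhibitors outside the serpin family gave 0 calls among 20 with edgeR and 5 with DESeq2. Itih5, an inter-alpha-trypsin inhibitor chain, was among those 5 (edgeR log2 fold change -1.31, SE 0.31, adjusted p = 0.0614).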

How the data were processed

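Per the file headers, the deposited table gives each library an unscaled count column and the authors' FPKM. That FPKM matched counts per gene length and library total with a largest relative difference of 3.31e-06 over 7566 genes. The submitters' processing notes name HISAT2 2.0.4, StringTie 1.3.0, mm10 and GRCm38.p4. How reads were counted, on which strand and with what rule for multiple matches is unknown from the sources used here, so overlapping and antisense genes cannot be told apart.

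From the counts, filterByExpr with a minimum count of 10 and a minimum total of 15 kept 13692 genes, scaled by TMM in edgeR 4.0.16 (R 4.3.3). ECKO was compared with f/f by the quasi-likelihood F-test with robust dispersion and genotype as the only term, two-sided, Benjamini-Hochberg adjusted over all genes tested, threshold 0.05. The same script was tested on simulated data. SE was derived from the log2 fold change and the F statistic. A count of 0 allows up to 3 counts, 0.124 to 0.2 CPM by library, and such floors and intervals cover counting error only. No molecular identifiers are described. Alternatives were RLE factors, total counts with and without mitochondrial transcripts, no filter, DESeq2 1.42.0, limma-voom 3.58.1, log2 FPKM with pseudocounts of 0.1 and 1, a replicate block and each library left out.

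Members, gene lists and tests were chosen with earlier results of these data known. Members called, the most abundant of each clade, Serpine2 and Serping1 are given per library by rule, and the others, like the shares within sets, were picked after their values were seen. Pathway genes named are those called and 1 other per list. Of 66 identifiers, 65 are in GENCODE M21. C1s2 is on more than 1 row, and the row with more counts was used. The per-sample columns left out numbered 0.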

Additional observations from a re-analysis of the deposited data

How the results depend on the processing

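Serping1 was lower and passed the threshold under all 9 alternative settings and all 6 leave-outs. Over the tested members, 437 of 479 single values kept their side of the threshold, 28 lost and 14 gained a call. Of the 437, 23 changed sign, over 9 members that were not called, and no called value did. The members called lower numbered 4; DESeq2 gave 7 (the 4 with Serpine2, Serpinb1a and Serpina7), limma-voom gave 2 and the replicate block gave 2. Members called higher numbered 1; total counts without mitochondrial transcripts gave 0, DESeq2 gave 2 (Serpina4-ps1 and Serpinb9), limma-voom gave 0 and log2(FPKM + 1) gave 0. All genes called numbered 552; total count scaling gave 1272, DESeq2 gave 1484 and limma-voom gave 307. Leaving out 1 library gave 1 to 5 members lower, 0 to 5 higher and 35 to 1012 genes in all, with fewer samples in each fit. The 5 higher, of 33 members tested, came without f/f library 1 and were Serpina1e, Serpina3g, Serpina3h, Serpina3k and Serpina3m. In that fit 246 of all 14016 genes were called higher. All 5 are Serpina1 or Serpina3 genes, which can share reads, so they are not separate observations. The summed Serpina3 counts then had a log2 fold change of 0.86 (adjusted p = 0.015), within 0.19 to 0.86 over the leave-outs. The summed Serpinb1 counts, at -1.44 (edgeR adjusted p = 0.0727), reached -1.69 (adjusted p = 0.0301) with total count scaling. That scaling moved the median of all genes to -0.22, from 0.01, and the share of calls that were lower to 95%, from 69.2%; log2(FPKM + 0.1) gave 92.2%. The cause of these shifts was not tested.

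Replicate numbers do not pair the libraries by the labels, and deviations of same-numbered libraries correlated at 0.0946, 0.152 and -0.052 across genes. With the number as a replicate block 416 genes were called, and Serpina6 and Serpina3b were not. Serpinb2, Serpina6, Serpina7 and Serpina4-ps1 rest on few counts, which limits their precision.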
